A study of Homo sapiens with 12 samples.

Results

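Serum starvation was examined in HEK293T cells that had received a control vector. HEK293T is an established, readily transfected human embryonic kidney line that carries the adenoviral E1A and the SV40 large T genes. The comparison was chosen by sample label and comprised all 6 libraries with the control vector among the 12 of the study. Of these, 3 came from cells kept in 10% serum (fed) and 3 from cells left without serum for 4 h (starved). All 6 cultures had been transfected with 1 µg of plasmid, so the fed cells are transfected cells as well. The other 6 libraries came from cells given a TRPML3 plasmid, which carries MCOLN3 and encodes a channel protein of the endolysosomal membrane, and fed or starved in the same way. They entered the estimate of the spread and are used here for comparison. The labels call the samples of a group biological triplicates, of 1 cell line. The share of cells that took up plasmid and the other components of the starvation medium are not given in the sources used here.

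Serum carries growth factors, which signal through receptor tyrosine kinases to the ERK kinases and to PI3K and AKT. ERK signalling induces immediate early genes such as FOS and EGR1 and feedback inhibitors such as the Sprouty and DUSP proteins, whereas AKT keeps the FOXO transcription factors out of the nucleus. Nutrient and growth factor signals also meet at mTORC1, which promotes ribosome production and restrains autophagy and the transcription of lysosomal genes by TFEB.

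Library totals were 34059864 to 41024433 counts in fed and 36585228 to 43700547 in starved vector cells, and 18030 genes were tested. Values below are CPM (counts scaled to a common library total with the TMM factors of edgeR), always in the order of replicates 1, 2 and 3, with SD over n = 3 and SE for fitted log2 fold changes of starved against fed. MCOLN3, the gene that marks the other plasmid, had 17.3, 12.3 and 18.4 CPM in fed and 9.3, 9.63 and 14.4 in starved vector libraries, against 4929 to 58220 in the TRPML3 libraries, so every TRPML3 library was above every vector library. All 12 markers of HEK293T cells reached a mean of 1 CPM, with a summed level of 657 to 902 CPM in fed and 975 to 1130 in starved libraries. No blood cell marker reached 1 CPM of 10, and 3 were at 0 in every vector library. The summed level of 10 fibroblast and endothelial markers was 27.3 to 37.4 CPM fed and 23.2 to 42 starved, and that of 10 keratinocyte and hepatocyte markers 20.8 to 24.2 and 23.2 to 26.2, with KRT14 and KRT1, which define keratinocytes, and APOA1 and APOB, which define hepatocytes, at 0. Of the 3 members of the latter list that were tested, 2 (66.7%, against 5.36% of all genes) lay apart as higher in starved cells. These were ALB, serum albumin, with 0.357, 0.343 and 0.258 CPM fed and 0.612, 0.695 and 2.05 starved (log2 fold change 1.80 ± 0.66, unadjusted p = 0.021, edgeR), and TF, transferrin, with 1.1, 0.96 and 0.947 fed and 1.47, 2.11 and 2.63 starved (1.05 ± 0.38, unadjusted p = 0.0182). The mean log2 level of these 3 tested members, relative to the mean of the 6 libraries, was -0.15, -0.18 and -0.28 fed. It was 0.01, 0.11 and 0.48 starved, without overlap, and rests on members with low counts. VIM, the intermediate filament vimentin and one of the HEK293T markers, had 342, 182 and 212 CPM fed and 491, 460 and 585 starved (log2 fold change 1.06 ± 0.29, unadjusted p = 0.0037 by edgeR), and carried most of the difference in the sum. Over the HEK293T list, 7 of the 12 markers had a negative log2 fold change with a median of -0.13. However, 4 (33.3%, against 5.36% of all genes) lay apart as higher and none as lower. The mean log2 levels of fed and starved libraries overlapped, and VIM had a log2 fold change of 0.0016 in TRPML3 cells. The part of these markers in the other results was not tested.

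The third fed library stood closer to the starved libraries than to its own group. Its Spearman correlation over the tested genes was 0.935 and 0.937 with fed replicates 1 and 2, and 0.951 and 0.951 with starved replicates 1 and 2, while fed replicates 1 and 2 correlated at 0.954 and starved replicates 1 and 2 at 0.959. The third starved library correlated at 0.933 to 0.939 with each of the other vector libraries. Transcripts of the mitochondrial genome made up 4.4%, 1.07% and 5.7% of counts in fed and 3.08%, 1.26% and 4.92% in starved libraries. Replicate 3 was highest and replicate 2 lowest in both groups.

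One gene passed the test of starvation in vector cells at an adjusted p under 0.05 with edgeR's quasi-likelihood test, which is 0.00555% of the genes tested. It was RSL1D1 (ENSG00000171490, chr16:11833850-11851542, GRCh38.p14 in RefSeq), which encodes a nucleolar protein with a ribosomal L1 domain and belongs to the list of ribosome biogenesis genes. The fed libraries had 68.7, 60.9 and 74.8 CPM and the starved ones 278, 322 and 423. The 6 values did not overlap, and replicate 3 followed replicates 1 and 2 in both groups. The mean was 68.1 ± 6.97 CPM fed and 341 ± 74.6 starved, and the gene rose by 2.32 ± 0.24 on the log2 scale (adjusted p = 0.0295, edgeR). In bulk RNA, a change in the make-up of the culture and a change in RNA per cell cannot be told apart.

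The TRPML3 libraries give the RSL1D1 increase its context. They had 443, 416 and 507 CPM fed and 655, 532 and 343 starved, a difference of 0.16 ± 0.23 on the log2 scale (adjusted p = 0.969, edgeR). Fed vector cells were thus the low group, and the starved vector libraries overlapped the TRPML3 libraries. The difference between the responses in the vector and the TRPML3 cells was 2.16 ± 0.33 on the log2 scale. Its adjusted p was 0.978 in edgeR (unadjusted p = 5.42e-05) and 0.000118 in DESeq2. Removing libraries ended the RSL1D1 call in most cases. Without any single vector library the adjusted p lay between 0.0571 and 0.374 in edgeR, and without TRPML3 fed replicate 1, 2 or 3 or TRPML3 starved replicate 2 it was 0.0949, 0.0962, 0.0759 and 0.0918. It was 0.0994 with the 6 vector libraries alone, and 0.318 with the replicate number as a block. The log2 fold change stayed between 2.14 and 2.45 in these fits.

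**Figure D1:**
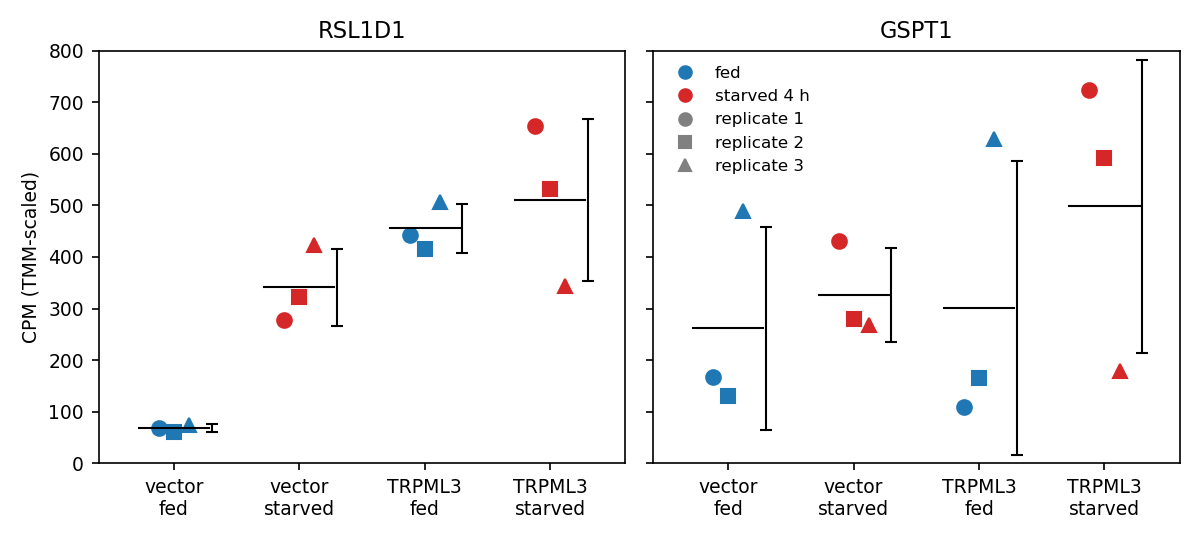
RSL1D1 and its neighbour GSPT1 in CPM (TMM-scaled) by library for fed and starved vector and TRPML3 cells, with markers for the replicate number a line for the mean and a bar for the SD of each group (n = 3). The 3 fed vector libraries lie at 60.9 to 74.8 CPM of RSL1D1 and the other 9 libraries at 278 or more.

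The genes next to RSL1D1 on chromosome 16 were read for comparison. GSPT1, which encodes the translation termination factor eRF3a, had 167, 130 and 488 CPM fed and 432, 279 and 269 starved (log2 fold change 0.32 ± 0.72, unadjusted p = 0.668, edgeR). BCAR4, a long non-coding RNA gene, stayed at or below 0.698 CPM in the vector libraries. No gene in RefSeq overlaps RSL1D1. Fed replicate 3 had the highest GSPT1 of the vector libraries and all starved libraries lay between the fed values, so GSPT1 overlapped where RSL1D1 did not.

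Below the adjusted threshold, 800 genes had an unadjusted p under 0.05 (4.44% of those tested), 402 of them higher (2.23%) and 398 lower (2.21%) in starved cells. The second smallest adjusted p was 1 after rounding. For 1791 genes (9.93%) the 3 starved libraries lay wholly on one side of the 3 fed ones, 967 above (5.36%) and 824 below (4.57%). Without any response, a share of about 0.05 of genes is expected at an unadjusted p under 0.05. With 3 libraries per group, genes also part in this way through the order of the libraries alone. Neither count therefore measures the size of a response. Both criteria were met by 585 genes, and 8914 genes (49.4%) had a log2 fold change above 0. The spread was wide, with a common biological coefficient of variation of 0.527 and a median SE of 0.45 on the log2 scale. DESeq2 called 43 genes at an adjusted p under 0.05, 17 higher and 26 lower. Of these, 22 had a vector library under 1 CPM.

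The genes with the lowest log2 fold changes among those without overlap, at an unadjusted p under 0.05 and averaging 5 CPM or more when fed or starved, were led by rows that were near 0 in starved cells. GAB2, an adaptor that couples receptor kinases to PI3K, had 22.6, 25.1 and 13.1 CPM fed and 0 in every starved library, at least 275-fold lower against a floor of 3 counts per library. CIR1, a corepressor of Notch-regulated genes, had 141, 66.9 and 27 CPM fed and 0.637, 0.615 and 1.06 starved. SUDS3, a subunit of the SIN3 corepressor complex, had 132, 128 and 97.5 CPM fed and 0.563, 0.348 and 5.76 starved. As the choice required, every fed library of these 3 genes was above every starved one. Of the starved SUDS3 libraries, 2 were far below the third. In TRPML3 cells GAB2 had 0.024, 16.4 and 0.0326 CPM fed and 0, 0 and 26.3 starved. CIR1 had 59.2, 1.07 and 0.783 CPM fed there and 54.8, 126 and 1.33 starved. SUDS3 had 172, 162 and 31 CPM fed there and 106, 16.1 and 0.81 starved. JAK2, a kinase of cytokine receptors, had 21, 0.251 and 15.6 CPM fed and at most 0.135 starved, so fed replicate 2 was near the starved level. USP44, a deubiquitinase, had 15.2, 17.6 and 8.75 CPM fed and 0.539, 0.348 and 0.473 starved. DOT1L, the histone H3 lysine 79 methyltransferase, had 53.9, 57.3 and 39.7 CPM fed and 2.35, 3.18 and 12.2 starved. MYO5C, a myosin motor, was even between replicates, at 25.6, 23.9 and 23.6 CPM fed and 3.13, 2.01 and 3.71 starved. IMMT, a core protein of the mitochondrial cristae junctions, had 142, 58 and 7.98 CPM fed and 2.55, 2.03 and 4.48 starved in vector cells, and 9.1, 3.62 and 8.54 fed and 99, 5.27 and 143 starved in TRPML3 cells. The difference of its means thus had opposite signs under the 2 plasmids. RGPD5 and JDP2 completed the group of 10, with log2 fold changes of -3.26 ± 1.39 and -4.98 ± 1.69. For all 10 genes the fed and starved TRPML3 libraries overlapped.

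Among the 10 genes with the highest log2 fold changes by the same rule, CPM often varied more in starved than in fed libraries. The choice required higher starved levels, so this difference in spread is not a result about starved cells. TRAF2, a signalling adaptor of TNF receptors, had 0.11, 0.114 and 0.172 CPM fed and 29.5, 17.8 and 9.99 starved. Its TRPML3 libraries had 0.072, 0.0781 and 16.6 CPM fed and 0.0584, 23.7 and 0.0868 starved. EPHB2, an ephrin receptor kinase, had 3.02, 3.45 and 2.75 CPM fed and 20.3, 11.3 and 30.4 starved. RFC5, a subunit of the clamp loader of DNA replication, had 56.2, 3.86 and 7.83 CPM fed and 84.5, 100 and 101 starved. For RFC5 the starved libraries were alike and the fed ones were not. Without fed replicate 1, RFC5 was the only gene that passed the test (log2 fold change 4.03, adjusted p = 0.0383, edgeR). ZNF512B had 0 in the fed libraries and 38.2, 0.214 and 2.16 CPM starved, a mean at least 171-fold higher that rests on starved replicate 1. SPOUT1, at 6.81, 38.6 and 6.68 CPM starved against 1.51 to 2.21 fed, and ZZEF1, at 6.91, 37.3 and 5.79 against 3.81 to 4.22, rested on starved replicate 2. IWS1, a transcription elongation factor, had 7.28, 30.9 and 9.32 CPM fed and 152, 65.4 and 33.4 starved. RSL1D1, MIR4751 and GTF3C2-AS2 completed the group. In TRPML3 cells MIR4751 and GTF3C2-AS2 lay apart as higher too, and the other genes of this group overlapped. Of these 20 genes, 11 had a vector library under 1 CPM, and 418 genes were eligible.

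Rows with a high level in one library and almost none in another were counted over the whole table. Of 5434 rows with at least 50 CPM in a vector library, 64 (1.18%) had under 1 CPM in another. The low value fell in fed replicates 1, 2 and 3 for 17, 12 and 13 rows and in starved replicates 1, 2 and 3 for 17, 15 and 20. Such rows were therefore found in every library. In starved cells 6 of them lay apart as lower and 5 as higher, together 17.2% of the 64 against 9.93% of all genes tested. ERO1A, an oxidase of the endoplasmic reticulum, had 124, 175 and 0.918 CPM fed and 96.1, 1.69 and 107 starved. ROCK2, a kinase that acts on the actin cytoskeleton, had 192, 48 and 55.3 CPM fed and 183, 5.62 and 0.698 starved. LIFR, the receptor of leukemia inhibitory factor, had 96.2, 99.2 and 72.8 CPM fed and 0.0735, 0.16 and 81.3 starved. These 3 genes overlapped between the groups. ERO1A had a low library in each group, whereas ROCK2 and LIFR were low in 2 starved libraries alone. They were chosen after their values were seen. How the counting assigned reads of such genes was not tested.

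**Figure D2:**
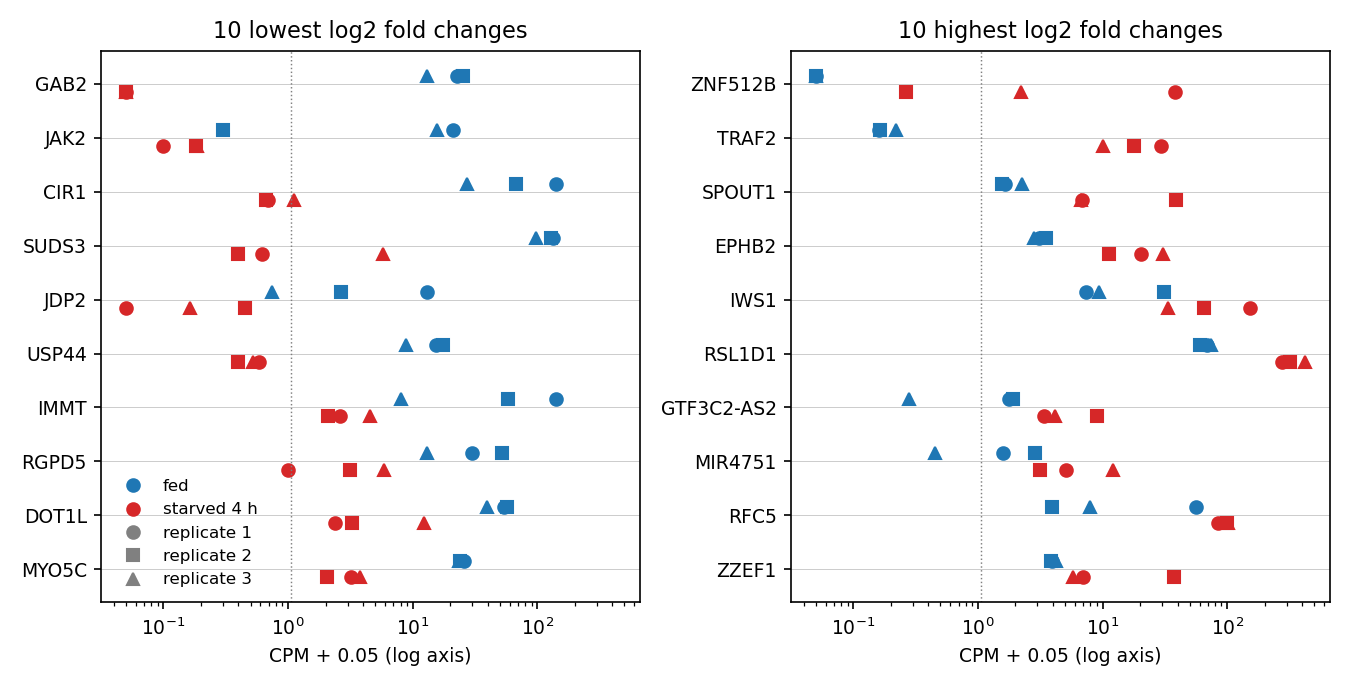
The 10 highest and the 10 lowest genes by log2 fold change, as CPM on a log10 axis, with 1 marker per library for fed and starved vector cells, 0.05 added to every value so that 0 can be drawn, and a dotted line at 1 CPM. The genes were chosen for having no overlap of fed and starved libraries, and in 11 of the 20 at least 1 library is under 1 CPM.

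The same contrast in the TRPML3 cells uses other libraries, so genes that lay apart in both plasmids were listed after the values were seen. In TRPML3 cells, no gene passed the adjusted test of starvation with edgeR (0%), 1030 had an unadjusted p under 0.05 (5.71%), DESeq2 called 88 and limma-trend 0. Same-numbered libraries of the 2 plasmids deviated together, with r of 0.11, 0.15 and 0.33 over genes in fed cells and 0.13, 0.095 and 0.32 in starved cells, so the 2 contrasts are not wholly separate. Of the 18030 genes tested, 373 (2.07%) lay apart in the same direction in both plasmids and 35 in opposite directions. An unadjusted p under 0.05 in both as well was found for 126 genes (0.699%). Of these, 105 had at least 5 CPM, 66 higher with a median log2 fold change of 0.59 in vector cells and 39 lower with a median of -0.86. None of them passed the adjusted test in edgeR.

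SLC16A6, a transporter of the monocarboxylate carrier family, had the smallest p of the genes shared in this way. Its vector libraries had 18.1, 12.2 and 5.37 CPM fed and 1.86, 1.34 and 2.07 starved, and the TRPML3 libraries 20.2, 12.8 and 6.23 fed and 1.69, 1.26 and 1.79 starved. The fed level was highest in replicate 1 and lowest in replicate 3 under both plasmids, and each fed library was above each starved one. The log2 fold change was -2.76 ± 0.52 in vector cells (unadjusted p = 0.000288, edgeR) and -3.05 ± 0.53 in TRPML3 cells (unadjusted p = 0.000143).

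Both measured arrestin domain genes of the ARRDC3 and ARRDC4 pair, whose products act in the turnover of membrane receptors and transporters, lay lower in starved cells. ARRDC3 had 110, 95 and 36.7 CPM fed and 14.2, 20.8 and 20.9 starved, a log2 fold change of -2.12 ± 0.72 against -2.45 in TRPML3 cells. ARRDC4 had 163, 151 and 79.4 CPM fed and 61.6, 59.6 and 56.2 starved, with -1.15 ± 0.28 against -1.01. TXNIP, the thioredoxin-interacting protein of the same arrestin family, had 235, 189 and 61.5 CPM fed and 56.5, 52.6 and 33.6 starved (-1.77 ± 0.58, unadjusted p = 0.0118, edgeR), but its TRPML3 libraries overlapped (-1.26, unadjusted p = 0.051). In each of these genes fed replicate 3 was the lowest fed library and the one nearest to the starved level. SMAD7, an inhibitor of TGF-beta signalling, had the same order, with 46.3, 28.2 and 18.4 CPM fed and 14.6, 17.3 and 16.4 starved. SEPTIN5, a septin cytoskeleton gene, had 11.3, 13.6 and 9.53 CPM fed and 4.55, 5.72 and 3.31 starved.

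Genes that lay higher in starved cells of both plasmids differed by smaller folds. AMD1, the adenosylmethionine decarboxylase of polyamine synthesis, had 596, 855 and 769 CPM fed and 1304, 1395 and 1026 starved, a log2 fold change of 0.75 ± 0.18 against 0.70 in TRPML3 cells. IP6K1, an inositol hexakisphosphate kinase, had 58.9, 34.4 and 50.6 CPM fed and 107, 97 and 144 starved (1.28 ± 0.33, against 1.03). For both genes fed replicate 3 lay between the other fed libraries. DNAH17, an axonemal dynein chain, and MINDY4, a deubiquitinase gene, had log2 fold changes of 1.67 ± 0.35 and 1.78 ± 0.44 at starved levels of at most 14.1 CPM.

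**Figure D3:**
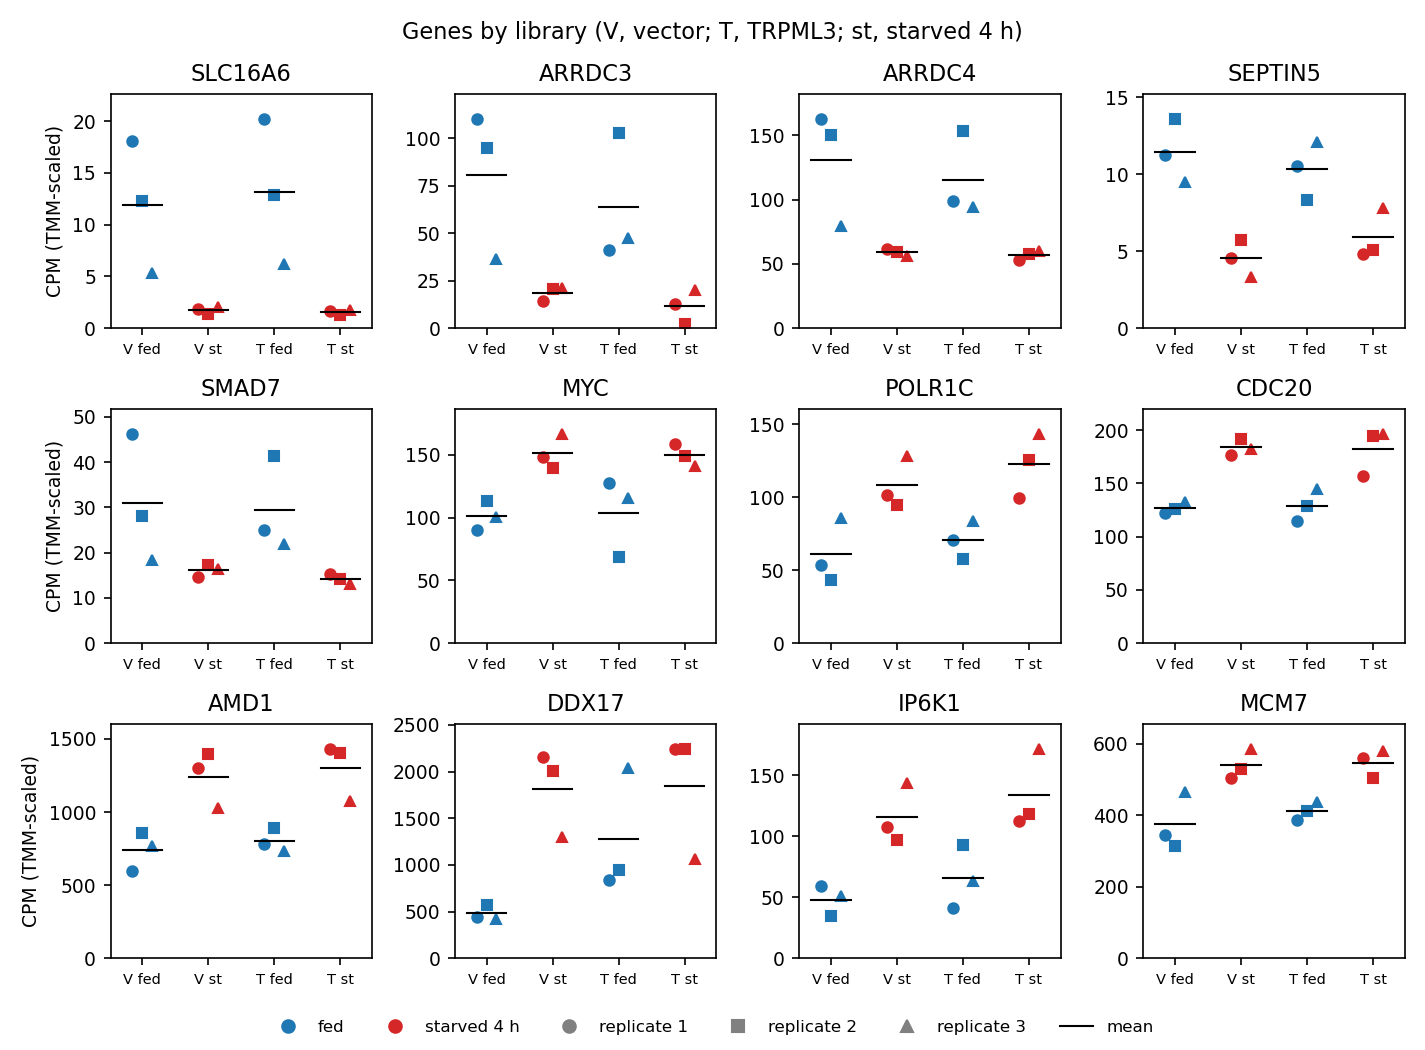
CPM (TMM-scaled) of 12 genes in the 12 libraries, fed and starved, for the vector (V) and TRPML3 (T) plasmids, with the replicate number as the marker shape and a line at the mean. Fed replicate 3 is the lowest fed vector library for SLC16A6, ARRDC3, ARRDC4, SEPTIN5 and SMAD7, and for MYC, AMD1 and IP6K1 it lies between the other fed libraries.

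Other genes with small unadjusted p in vector cells did not lie apart in TRPML3 cells. DDX17, an RNA helicase, had 443, 573 and 424 CPM fed and 2152, 2003 and 1299 starved in vector cells (1.92 ± 0.39, unadjusted p = 0.000484, edgeR), with all 3 starved libraries above 1000 CPM. Its TRPML3 libraries had 841, 944 and 2034 CPM fed and 2240, 2246 and 1060 starved (0.54, unadjusted p = 0.181). COL27A1, a fibrillar collagen, had 25.7, 19.3 and 24.9 CPM fed and 4.55, 3.53 and 1.98 starved (-2.80 ± 0.48), against a log2 fold change of 0.30 in TRPML3 cells. TAOK1, a stress-responsive kinase of the MAP kinase cascades, had 130, 134 and 109 CPM fed and 252, 324 and 227 starved (1.11 ± 0.20), against -0.26. The difference of response itself passed an adjusted p under 0.05 in edgeR for no gene (0%). An unadjusted p under 0.05 was found for 374 genes (2.07%), DESeq2 called 26, limma-trend 0, and the smallest adjusted p in edgeR was 0.978. For DDX17, COL27A1 and TAOK1 the unadjusted p of that difference was 0.0256, 0.000684 and 0.000457. These 3 genes too were picked after their values were seen.

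The gene lists are described next by counts and by the median log2 fold change, which over all tested genes was -0.0053. Immediate early genes had no common direction. Of 20 tested, 11 (55%, against 49.4% of all genes) had a positive and 9 a negative log2 fold change, 2 (10%, against 5.36%) lay apart as higher and none as lower, and the median was 0.0177. FOS, a subunit of the AP-1 factor, had 17.3, 30.8 and 5.28 CPM fed and 20.6, 24.6 and 48.7 starved. EGR1, a zinc finger factor, had 210, 344 and 39.4 CPM fed and 309, 326 and 196 starved. JUN, the partner of FOS, had 835, 694 and 198 CPM fed and 384, 423 and 480 starved. For all 3 genes fed replicate 3 was the lowest of the 6 vector libraries, and the groups overlapped. MYC, which drives growth and ribosome genes, had 90.3, 113 and 100 CPM fed and 148, 139 and 167 starved (0.58 ± 0.22, unadjusted p = 0.0231, edgeR) and lay apart in TRPML3 cells too. MCL1, an inhibitor of apoptosis, had 249, 355 and 394 CPM fed and 424, 470 and 469 starved. As the choice required, MYC and MCL1 were higher in every starved library than in any fed one.

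ERK feedback and target genes were mostly lower in starved cells. Of 13 tested, 12 had a negative log2 fold change with a median of -0.65, against -0.76 in TRPML3 cells, but none lay apart. SPRY4, an inhibitor of receptor kinase signalling, had 4.17, 9.98 and 0.488 CPM fed and 0.588, 0.695 and 0.428 starved (-3.09 ± 0.95, unadjusted p = 0.00792, edgeR). DUSP6, a phosphatase of ERK, had 3.21, 4.02 and 0.631 CPM fed and 0.661, 0.561 and 0.99 starved (-1.82 ± 0.75, unadjusted p = 0.0338). SPRY2 had 43.1, 46.7 and 23 CPM fed and 26.7, 23.2 and 22.1 starved. In each case fed replicates 1 and 2 were above the starved libraries and fed replicate 3 was among them. The mean log2 level of the list, taken relative to the mean of the 6 libraries, was 0.42, 0.73 and -0.48 fed and -0.25, -0.15 and -0.28 starved. Fed replicate 3 was thus below all starved libraries. The list's median was -0.90 without it, -0.33 without fed replicate 1 and -0.37 without fed replicate 2.

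FOXO target genes, which FOXO factors induce when AKT is inactive, lay in the lower direction as well. Of 16 tested, 14 had a negative log2 fold change, the median was -0.51 (-0.57 in TRPML3 cells), and 4, or 25%, lay apart as lower against 4.57% of all genes. Those at an unadjusted p under 0.05 among the 4 were TXNIP and ARRDC4, which are also known targets of the glucose-responsive factor MondoA. KLF9, a Krüppel-like factor, had 106, 89.5 and 23 CPM fed and 43.7, 25.3 and 32 starved. IRS2, an adaptor of the insulin receptor, had 21.7, 26.6 and 12.5 CPM fed and 12.7, 10.9 and 19.6 starved. Both overlapped through fed replicate 3. The list's mean log2 level was 0.62, 0.51 and -0.34 fed and -0.24, -0.28 and -0.26 starved, so that the starved libraries were alike and fed replicate 3 was below them. Its median was -0.67 without fed replicate 3.

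Lysosome and autophagy genes had medians near 0. Of 26 lysosome genes, 18 (69.2%, against 49.4% of all genes) had a positive log2 fold change with a median of 0.0897. One lay apart as higher (3.85%, against 5.36%) and 2 as lower (7.69%, against 4.57%), and none had an unadjusted p under 0.05. LAMP1, the main lysosomal membrane protein, had 29.7, 43.1 and 32.7 CPM fed and 51.1, 53.2 and 35.6 starved, which overlapped through starved replicate 3. CTSD, the protease cathepsin D, had a log2 fold change of 0.27 ± 0.22. Of 34 autophagy genes tested, 16 were positive and 18 negative with a median of -0.019, and 2 lay apart as higher (5.88%) and 3 as lower (8.82%). SQSTM1, the cargo receptor p62, had 34.5, 34.5 and 59.9 CPM fed and 114, 59.3 and 74.8 starved (0.94 ± 0.42, unadjusted p = 0.0454, edgeR), with fed replicate 3 just above starved replicate 2. ATG3, the enzyme that conjugates LC3 to lipid, had 123, 81.8 and 89.4 CPM fed and 73.3, 74.1 and 62.4 starved (-0.49 ± 0.21, unadjusted p = 0.0411). ULK1, the kinase that starts autophagy, had 25.4, 28.5 and 23.8 CPM fed and 23.9, 12.9 and 4.84 starved. MAP1LC3B, which encodes LC3B, had a log2 fold change of 0.27 ± 0.23.

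Lipid and amino acid genes were mixed too. The median of 23 cholesterol synthesis genes was -0.17, with 11 positive and 12 negative, and 4 (17.4%, against 5.36% of all genes) lay apart as higher. Without fed replicate 3 this median was -0.014, and without starved replicate 2 it was -0.041. HMGCS1, an early enzyme of the pathway, had 275, 428 and 147 CPM fed and 197, 146 and 157 starved. EBP, a sterol isomerase late in the pathway, had 12.5, 10 and 11.1 CPM fed and 33.2, 20.9 and 24.6 starved (1.23 ± 0.29, unadjusted p = 0.00143, edgeR), with a log2 fold change of 0.02 in TRPML3 cells. The starved libraries were thus above the fed ones for EBP, whereas those of HMGCS1 overlapped them. Of 10 fatty acid synthesis genes, 6 were positive with a median of 0.0829. Targets of ATF4, the factor of the amino acid response, had a median of -0.25 with 12 of 29 positive. It was -0.24, -0.29 and -0.0041 without starved replicates 1, 2 and 3, and -0.11, -0.038 and -0.12 without fed replicates 1, 2 and 3. No single vector library left out turned its direction, but the median was 0.088 without replicate 3 of both groups. ASNS, the asparagine synthetase, had 340, 636 and 820 CPM fed and 762, 747 and 890 starved, so only fed replicates 1 and 2 were below the starved libraries. SLC3A2, the shared chain of amino acid transporters, had 200, 275 and 277 CPM fed and 331, 420 and 283 starved (0.46 ± 0.20).

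Genes of ribosome biogenesis lay mostly higher in starved cells. Of 35 tested, 27 had a positive log2 fold change with a median of 0.27 (0.31 in TRPML3 cells), and 5, or 14.3%, lay apart as higher against 5.36% of all genes, RSL1D1 included. POLR1C, a subunit of RNA polymerases I and III, had 53.8, 43.5 and 85.9 CPM fed and 102, 94.9 and 128 starved (0.82 ± 0.27, unadjusted p = 0.0118, edgeR), and lay apart in TRPML3 cells as well. NCL, nucleolin, had 2441, 2637 and 3587 CPM fed and 3441, 3512 and 3653 starved, so fed replicate 3 was within the starved range. FBL, the methyltransferase fibrillarin, had 359, 325 and 190 CPM fed and 69, 398 and 68.3 starved. The mean log2 level of the list was -0.27, -0.37 and 0.26 fed and 0.12, 0.10 and 0.14 starved. Fed replicate 3 was above all starved libraries, the reverse of its place in the ERK feedback and FOXO lists. The median was 0.45 without it and 0.14 without fed replicate 1. Of 31 cytosolic ribosomal proteins, 24 were positive, but none lay apart and the median was 0.0274.

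Genes of the G2 and M phases of the cell cycle also lay higher. Of 22 tested, 17 were positive with a median of 0.25 (0.17 in TRPML3 cells), and 6, or 27.3%, lay apart as higher against 5.36% of all genes. The median was 0.10 without starved replicate 1. CDC20, an activator of the anaphase-promoting complex, had 122, 126 and 132 CPM fed and 177, 192 and 182 starved (0.53 ± 0.15, unadjusted p = 0.00412, edgeR). PLK1, a mitotic kinase, had 16.6, 13.7 and 26.8 CPM fed and 58.4, 37.8 and 40.4 starved (1.26 ± 0.48). CCNB1, cyclin B1, had 277, 345 and 432 CPM fed and 515, 516 and 487 starved. In CDC20, PLK1 and CCNB1 each starved library exceeded each fed one, with fed replicate 3 the nearest. CDK1, another gene of the list, had 300, 130 and 151 CPM fed and 320, 185 and 188 starved (0.25 ± 0.33), which overlapped. AURKB and BIRC5, both of the chromosomal passenger complex, had log2 fold changes of 0.64 ± 0.28 and 0.34 ± 0.13. The list's mean log2 level was -0.12, -0.28 and -0.03 fed and 0.18, 0.22 and 0.03 starved, which did not overlap. Of 24 G1 and S phase genes tested, 15 were positive with a median of 0.11. MCM7, a subunit of the replicative helicase, had 345, 314 and 464 CPM fed and 505, 530 and 587 starved (0.53 ± 0.15, unadjusted p = 0.00602), and E2F2, a transcription factor of S phase entry, had 36.9, 33.6 and 49.4 fed and 13.2, 27.6 and 29.6 starved (-0.77 ± 0.34, unadjusted p = 0.0451).

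**Figure D4:**
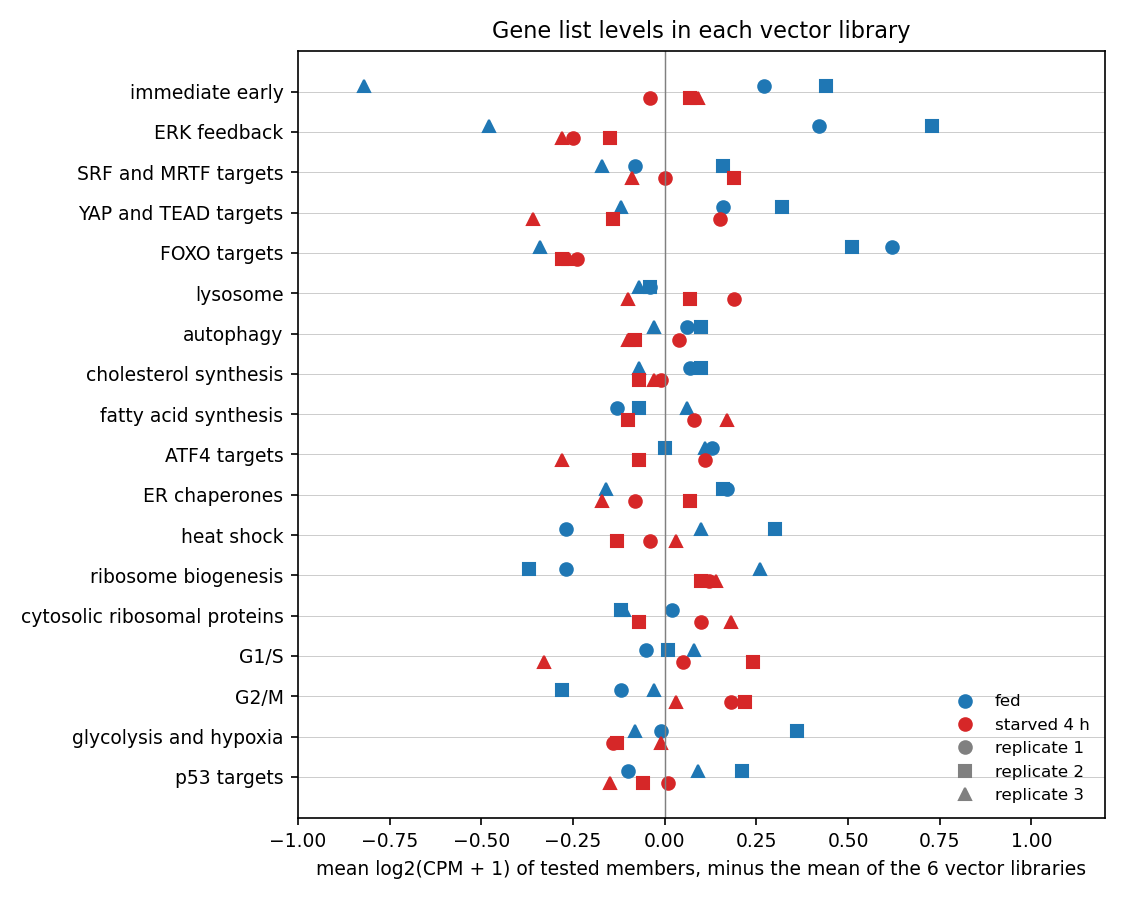
Mean log2 level of each gene list in each of the 6 vector libraries relative to the mean of the 6, with colours for fed and starved and marker shapes for the replicate number. Fed replicate 3 is below the starved libraries in the immediate early, ERK feedback and FOXO lists, at -0.82, -0.48 and -0.34, and above them in ribosome biogenesis, at 0.26.

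The remaining lists with other roles are given by their medians. The median was 0.0374 over 14 targets of SRF and MRTF, -0.20 over 14 targets of YAP and TEAD, -0.10 over 16 ER chaperones and -0.0859 over 13 heat shock genes. It was -0.22 over 18 glycolysis and hypoxia genes, -0.26 over 12 p53 targets and 0.0986 over 13 genes of the mitochondrial genome. Of the 12 p53 targets, 3 (25%, against 4.57% of all genes) lay apart as lower and none as higher. None of the 12 had an unadjusted p under 0.05 in edgeR, and the list's mean log2 levels overlapped between fed and starved libraries. In TRPML3 cells 1 of the 12 had a positive log2 fold change. Single libraries set several of these values. The mitochondrial median was 0.89 without fed replicate 3 and -0.44 without starved replicate 3, and the ER chaperone median was 0.064 without starved replicate 3. The heat shock median was 0.016 without fed replicate 2, the glycolysis and hypoxia median -0.081 without fed replicate 2, and the YAP and TEAD median -0.088 without starved replicate 3. The p53 median was -0.15 without fed replicate 3 and -0.17 without starved replicate 2. Of the marker lists, the median was -0.24 over 3 tested blood cell markers, -0.059 over 8 fibroblast and endothelial markers and 1.05 over 3 keratinocyte and hepatocyte markers. HSPA1B, an inducible HSP70 chaperone, had 423, 422 and 410 CPM fed and 203, 234 and 336 starved (-0.70 ± 0.31, unadjusted p = 0.0488, edgeR). HSPA1A, another HSP70 gene of the same list, had 11.59, 155.5 and 154 CPM fed and 80.05, 96 and 128 starved, which overlapped. How the counting divided reads between HSPA1A and HSPA1B was not tested. PFKFB3, a regulator of glycolysis, had 67, 79.6 and 63.1 CPM fed and 49, 50.4 and 43.4 starved (-0.55 ± 0.23, unadjusted p = 0.0351), and lay apart in TRPML3 cells too. CDKN1A, the cell cycle inhibitor p21 and a p53 target, had 46.9, 50.4 and 39.5 CPM fed and 23.5, 34.1 and 28.4 starved (-0.67 ± 0.43, unadjusted p = 0.147). For HSPA1B, PFKFB3 and CDKN1A every starved library was below every fed one. None of the genes in these lists passed the adjusted test in edgeR, and of all list genes RSL1D1 alone did.

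Of the single libraries left out, the third fed one altered the number of genes at the unadjusted threshold most. Without it, 1546 genes had an unadjusted p under 0.05 in edgeR, against 800 with all libraries, and 518 did without fed replicate 1. Leaving out replicate 3 from both vector groups gave 1458, replicate 1 gave 495, and replicate 2 gave 573. The median of the immediate early list went from 0.0177 to -0.40 without fed replicate 3 and to -0.59 without replicate 3 in both vector groups, which turned its direction.

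**Figure D5:**
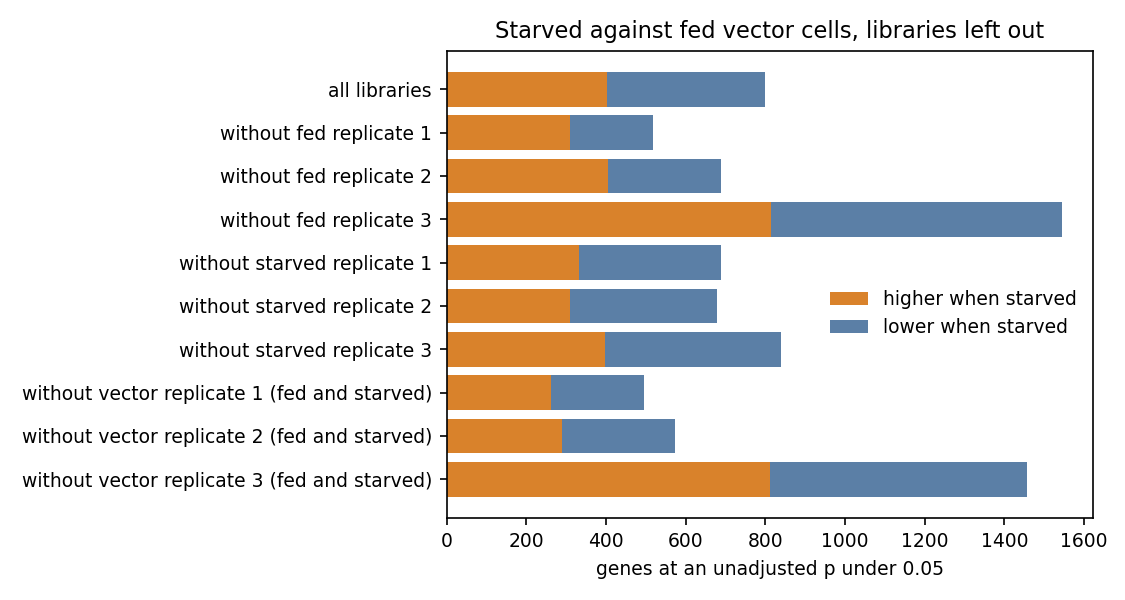
Number of genes at an unadjusted p under 0.05 (edgeR) for starved against fed vector cells, with all libraries and with each library, or each replicate number, left out in turn, split into genes higher and lower when starved. The count is 800 with all libraries, 1546 without fed replicate 3 and 495 without replicate 1 of both vector groups.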

How the data were processed

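Polyadenylated RNA of HEK293T cells was sequenced by the authors in 12 libraries. The submitters' processing notes name FastQC, fastp, HISAT2, StringTie, DESeq2 and the GRCh38 build. The deposited raw counts of the authors cover 41878 gene rows. Whether they are direct read counts or rounded estimates, which annotation release was used and whether strand was are not given in the sources used here, so reads of overlapping or near-identical genes are uncertain. The deposited normalized signal of the authors covers 23252 rows and equals the raw count divided by 1 factor per library. It was used only in an alternative. No columns of other samples were present.

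Counts were tested with edgeR 4.0.16 in R 4.3.3: TMM scaling, filterByExpr by group, and glmQLFit with robust = TRUE over the 12 libraries (8 residual degrees of freedom) with Benjamini-Hochberg adjustment at 0.05. The contrasts were starved minus fed vector cells, the same in TRPML3 cells, and their difference. All tests were two-sided, and 3 counts per library were taken as the floor, which covers counting error only. Symbols and coordinates are from the files and RefSeq (GRCh38.p14).

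The 23 lists, with 430 different genes, were written from general knowledge with earlier results of these data known. The rule named genes at an adjusted p under 0.05, the 10 highest and 10 lowest log2 fold changes at an unadjusted p under 0.05 without overlap and with 5 CPM in a group mean (symbols that join 2 genes with a hyphen left out), and the first 3 members of a list plus members at an unadjusted p under 0.05 without overlap. Other named genes were chosen after their values were seen. Mean log2 levels of lists used log2(CPM + 1). Alternatives were DESeq2 1.42.0, limma-trend (limma 3.58.1) on log2(normalized signal + 1), other scalings, filters and thresholds, a replicate block, the 6 vector libraries alone and each library left out. Leaving out the rows at both extremes was added after seeing the data. The fit was run on simulated counts with a much smaller spread between replicates than these data. That run therefore gives no error rate or power for the results here. Over the tested genes, same-numbered fed and starved vector libraries did not deviate together (r = -0.043, -0.013 and -0.057), though their mitochondrial shares had the same order. A few genes of the lists are not reported here.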

Additional observations from a re-analysis of the deposited data

How the results depend on the processing

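The number of genes at an adjusted p under 0.05 for starvation in vector cells was 1 with edgeR and stayed 1 with DESeq2 size factors, library size only, no filter, 10 counts in every library, limma-trend, no robust estimation, and rows at both extremes left out. It was 43 with the DESeq2 Wald test, 0 with the 6 vector libraries alone, 0 at an adjusted p under 0.01, and 0 to 2 with libraries left out. The 43 DESeq2 genes had the same sign in edgeR, and 39 had an unadjusted p under 0.05 there. With the replicate number as a block the count was 0 and the adjusted p of RSL1D1 0.318 (edgeR), and 913 genes were under 0.05 unadjusted. Over the tested genes, same-numbered fed and starved vector libraries did not deviate together, but their mitochondrial shares followed the replicate number. The labels do not say whether replicate numbers mark a shared day. With libraries left out, the count at an unadjusted p under 0.05 ran from 495 to 1546. The number of genes whose response differed between the plasmids was 0 with edgeR, 26 with DESeq2 and 0 to 3 with libraries left out (3 without TRPML3 starved replicate 1, 1 without TRPML3 fed replicate 1 or 3). The adjusted p of RSL1D1 ran from 0.00834 to 0.374 with libraries left out in edgeR. The cause of these shifts was not tested. Without TMM scaling, the median log2 fold change of all genes was -0.0505.

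Of 88 named genes with up to 25 alternatives each, 11 turned direction in 23 of 2178 refits, none of them at an adjusted p under 0.05 in edgeR. Their log2 fold changes with libraries left out ran from -0.48 to 0.13 for PIK3IP1, -0.17 to 1.26 for GSPT1, -0.66 to 0.25 for CCNE1, -1.13 to 0.43 for CCNE2, -4.96 to 0.29 for ROCK2, -0.055 to 0.72 for CDK1, -0.084 to 1.62 for FOS, -0.92 to 0.016 for JUN, -0.0083 to 0.25 for NPM1, -1.61 to 0.70 for ERO1A and -2.03 to 1.63 for BCAR4. ERO1A was also at 0.26 with the replicate block, and BCAR4 at -0.16 with limma-trend. Over the alternatives, the median log2 fold change ran from -0.90 to -0.33 for the ERK feedback list, -0.77 to -0.41 for FOXO targets, 0.14 to 0.46 for ribosome biogenesis and 0.10 to 0.32 for the G2 and M list, while that of the immediate early list ran from -0.59 to 0.19.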
